A study of Mus musculus with 12 samples.

Results

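The genes described here are 9 regulators and markers of the primitive endoderm, followed in mouse embryos and embryonic stem (ES) cells with and without Dis3l, which encodes a ribonuclease of the cytoplasmic exosome. They were chosen by symbol, as known genes of this lineage: the transcription factors Gata4, Gata6, Sox7, Sox17, Foxa2 and Hnf4a, the receptor Pdgfra, the endocytic adaptor Dab2 and the endocytic receptor Cubn. All 9 were among the 45706 genes of the blastocyst table, and 6 of the 9 were among the 13009 genes of the ES cell table. Gata6, Sox17 and Foxa2 were not analysed here in ES cells.

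The primitive endoderm is the layer of the late blastocyst that faces the cavity and later gives rise to the visceral and parietal endoderm of the yolk sac. Inner cells that receive FGF4 through FGF receptors keep GATA6 and lose NANOG, and PDGFRA, SOX17, GATA4 and SOX7 are switched on in succession as these cells commit and sort to the surface. FOXA2 and HNF4A are factors of the visceral endoderm, where the endocytic receptor cubilin, its partner amnionless and the adaptor DAB2 take up nutrients from the mother.

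Per the labels, 4 groups of 3 samples each were compared: blastocysts labelled Dis3L WT, blastocysts labelled Dis3L KO, ES cells labelled Dis3L WT and ES cells labelled Dis3L KO. The labels do not describe the knockout allele or the strain. Per the labels' protocols, females were superovulated and embryos were collected 96 h after the hCG injection. Each blastocyst library came from a single embryo, by tagmentation of cDNA. The ES cells were derived on inactivated mouse embryonic fibroblasts and grown with serum and LIF, and their libraries were stranded and depleted of ribosomal RNA. The labels do not say whether the 3 ES cell samples of a group are separate lines, so that their spread may be technical. A blastocyst library holds trophectoderm, epiblast and primitive endoderm together, so fewer cells of a type and less RNA per cell cannot be told apart.

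The deposited tables hold 1 comparison per material and do not state its direction. Signs are therefore given as deposited, and the sides of each comparison are called the positive and the negative side, without a genotype. Whole reads per library were recovered from the printed means, as described with the processing. This gave 3 count columns per side in blastocysts and 2 per side in ES cells, where the labels list 6 samples. The libraries are called P1 to P3 and N1 to N3 in blastocysts, and P1, P2, N1 and N2 in ES cells, by their side. Normalised reads are reads divided by the size factor of the library, the scale of the authors' means. Over the recovered genes the blastocyst columns held between 1363390 and 3197685 reads, and the ES cell columns between 933259 and 1527881. In blastocysts 95.5% of the recovered counts above 0 were even, as when both mates of a pair are counted, so the number of fragments is smaller than the number of reads. Above a mean of 12 the recovery tried even reads first, so this share is not independent of the search. Dis3l itself had 26, 8 and 0 reads in blastocyst libraries P1 to P3 and 10, 4 and 8 in N1 to N3, which overlapped. In ES cells it had 14 and 8 reads in P1 and P2 and 39 and 39 in N1 and N2, with an adjusted p of 0.445 in the authors' deposited table.

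Before any single gene, the blastocyst libraries differed in a way that the sides do not describe. N1 and N3 held the lowest values of 6 for Sox7, Foxa2, Dab2 and Cubn, and the highest values of 6 for Gata6 and Hnf4a. N2 had the highest value of 6 for Dab2 and Cubn, lay among the positive-side libraries for Foxa2 and Gata6, and lay between the positive-side libraries and the other negative-side libraries for Sox7 and Hnf4a. This order was noticed after the values were seen. Both low values fell in N1 and N3 for 4 of the 9 genes, against 9.88% of 14985 tested genes with recovered reads, and both high values for 2 of the 9, against 11.8%. N1 was the deepest and N3 the shallowest of the 6 libraries. For each of the 9 genes the ratio of the reads is therefore also described without N2 and against N2 alone.

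All 9 genes had an adjusted p in blastocysts. None of the 9 genes passed an adjusted p of 0.05 in blastocysts in the authors' deposited table, where 0.0986% of 15209 tested genes did. At an unadjusted p under 0.05 there were 2 of the 9, Sox7 with a positive and Hnf4a with a negative fold change, against 6.21% of the tested genes. The same 2 genes were those whose columns did not overlap between the sides, against 10.0% of the tested genes with recovered reads. Without N2 the columns of 6 of the 9 genes lay apart, against 26.9% of the tested genes: Sox7, Foxa2, Dab2 and Cubn higher and Gata6 and Hnf4a lower on the positive side. Leaving out N2 was chosen after the values were seen. These are the same 6 genes named above for N1 and N3, so this count adds no further result.

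**Figure D1:**
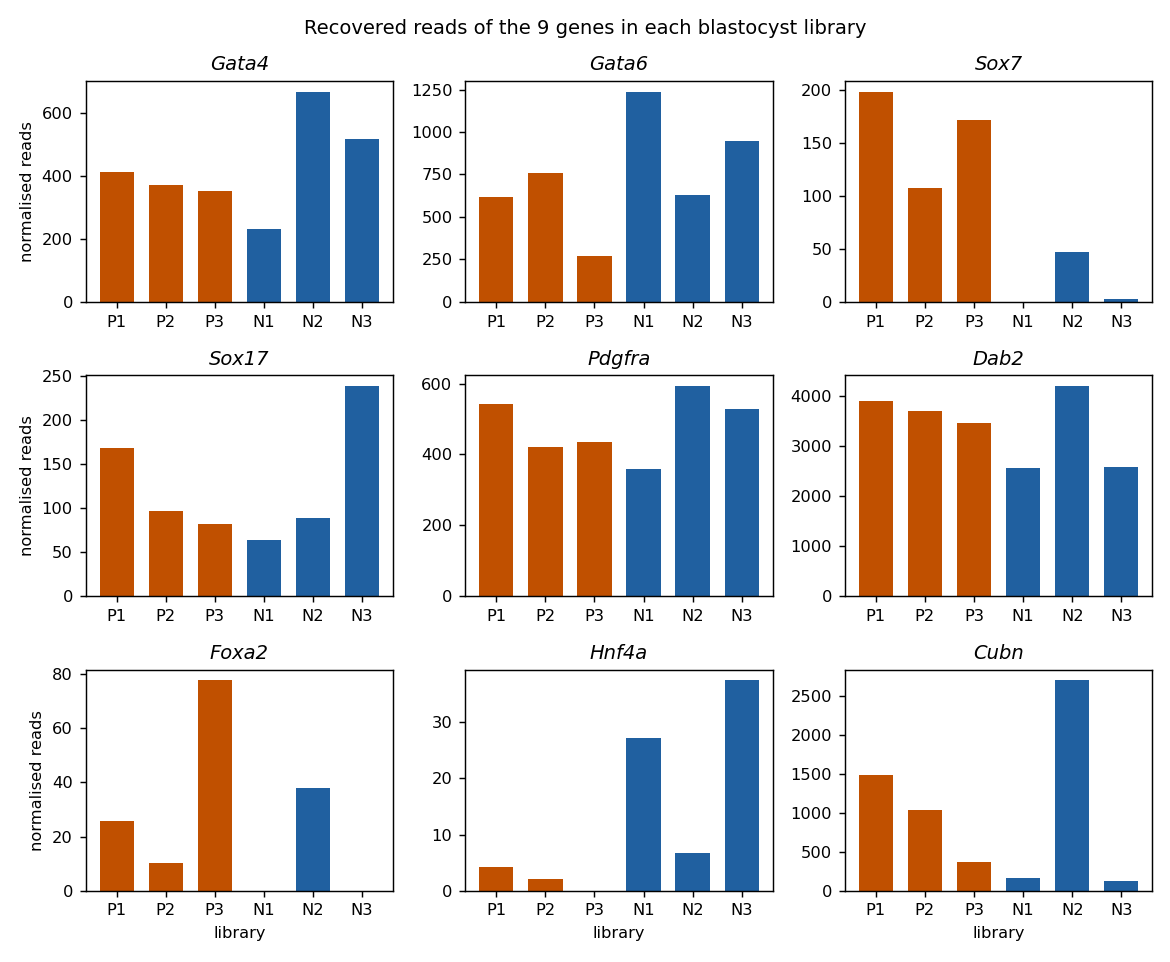
Normalised reads (reads divided by the library's size factor, vertical axis from 0) of each of the 9 genes in the 6 blastocyst count columns, with the positive side in orange and the negative side in blue; each bar is 1 library. Sox7 and Hnf4a lie apart between the sides in opposite directions, and N1 and N3 are low for Sox7, Foxa2, Dab2 and Cubn.

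Gata6, the earliest GATA factor of the lineage, lies on chromosome 18. It stood at 619.6, 759 and 269.7 normalised reads in P1, P2 and P3. N1, N2 and N3 held 1238, 631 and 949, so that 2 of the 3 lay above every positive-side column and the third lay between them. The mean was 549 ± 252 (SD, n = 3) on the positive and 939.6 ± 304 (SD, n = 3) on the negative side. In the authors' deposited table the log2 fold change was -0.77 (95% interval -1.57 to 0.02) with an adjusted p of 0.809. The log2 ratio of the reads was -0.99 without N2 and -0.20 against N2 alone, and without P3 it was -0.45.

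Gata4, the later GATA factor, stood at 411, 369 and 352 normalised reads in P1 to P3. N1 to N3 held 233, 667 and 518, which include both the lowest and the highest value. The positive-side columns lay close together (SD 30.4, n = 3), and the negative-side columns were spread more widely (SD 221, n = 3). The authors' deposited table gave a log2 fold change of -0.32 (95% interval -1.13 to 0.49) with an adjusted p of 0.914. In reads the log2 ratio was 0.01 without N2, -0.82 against N2 alone and -0.65 without N1.

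Sox7, an SRY-box factor that marks the last step of commitment in the blastocyst, gave the smallest p-value of the 9 genes. P1, P2 and P3 held 278, 106 and 150 reads, or 198, 108 and 171 normalised reads. N1, N2 and N3 held 0, 42 and 2 reads, or 0, 46.8 and 2.88 normalised reads. Every positive-side library was thus above every negative-side library, and 2 of the negative-side libraries were at or near 0. The mean was 159 ± 46.7 (SD, n = 3) on the positive and 16.6 ± 26.2 (SD, n = 3) on the negative side. In the authors' deposited table the log2 fold change was 3.27 (95% interval 1.17 to 5.37), with an unadjusted p of 0.00226 and an adjusted p of 0.349. The size of the difference turned on single libraries: the log2 ratio of the reads was 1.75 against N2 alone, and without N2 the negative side held 2 reads in all, too few for a ratio. Sox7 lies on chromosome 14 at 63943674 to 63950732 in the deposited coordinates (GRCm38 per the submitters' processing notes), and Gata4 lies on the same chromosome at 63198922 to 63271692.

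Sox17, the SRY-box factor that comes on before Sox7, had another order of libraries. P1 to P3 held 168, 97.4 and 82.3 normalised reads and N1 to N3 held 64.3, 89.2 and 239. N1 was the lowest and N3 the highest of the 6. Its log2 fold change in the authors' deposited table was -0.16 (95% interval -1.40 to 1.08) with an adjusted p of 0.997. The log2 ratio of the reads was -0.38 without N2 and 0.38 against N2 alone. Without N3, the highest library, the log2 ratio of the reads was 0.59, and without P1 it was -0.54. Over the 6 columns the Pearson correlation of Sox17 with Sox7, on log2(normalised reads + 1), was 0.05.

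Foxa2, a forkhead factor of the visceral endoderm, was found in all 3 positive-side libraries and in 1 negative-side library. P1 to P3 held 36, 10 and 68 reads and N1 to N3 held 0, 34 and 0, or 25.7, 10.1, 77.7, 0, 37.9 and 0 normalised reads. The library with reads on the negative side stood above 2 of the 3 positive-side libraries. Its log2 fold change in the authors' deposited table was 1.58 (95% interval -1.65 to 4.82) with an adjusted p of 0.853. Against N2 alone the log2 ratio of the reads was -0.0021, and without P3 it was 0.49 with all 3 negative-side libraries. Without N2 the negative side held 0 reads, so no ratio is given.

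Hnf4a, a nuclear receptor of the visceral endoderm and liver, had the lowest level per kilobase of the 9 genes. P1 to P3 held 6, 2 and 0 reads and N1 to N3 held 44, 6 and 26. In normalised reads P1 to P3 stood at 4.28, 2.03 and 0 and N1 to N3 at 27.2, 6.69 and 37.4. The sides did not overlap, but P1 and N2 had the same number of reads. The mean was 2.10 ± 2.14 (SD, n = 3) on the positive and 23.8 ± 15.6 (SD, n = 3) on the negative side. In the authors' deposited table the log2 fold change was -3.45 (95% interval -6.62 to -0.28), with an unadjusted p of 0.0330 and an adjusted p of 0.764. The log2 ratio of the reads was -3.66 without N2 and -1.46 against N2 alone, and it ran from -2.73 to -4.00 when each library was left out in turn. Hnf4a and Foxa2, both factors of the visceral endoderm, thus stood at opposite ends of the same libraries: the 2 libraries with no Foxa2 read held the most Hnf4a reads.

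Stretches before the transcription start are printed for the genes at those opposite ends, Hnf4a on 1 side and Foxa2, Dab2 and Cubn on the other. RefSeq (GRCm38.p6) gave windows for 5 of the 9 genes, 9 windows in all. Each line holds the 220 bases from 250 to 31 bases before an annotated start on the gene's strand, 5′ to 3′, and capitals mark every match, on either strand, to the GATA letters or to the HNF1 letters. The GATA letters were AGATAA, which could also start with T and end with G. The HNF1 letters were GTTAAT, the first part of the site of HNF1 factors. Hnf4a has a pair of starts, 1 upstream (chr2:163506607-163506826, plus strand) and 1 further downstream (chr2:163546905-163547124, plus strand). Of 3 Foxa2 windows the one furthest downstream is printed (chr2:148045495-148045714, minus strand), and of 2 Dab2 windows the upstream one (chr15:6299539-6299758, plus strand). Cubn has 1 window (chr2:13491907-13492126, minus strand).
Hnf4a, upstream start: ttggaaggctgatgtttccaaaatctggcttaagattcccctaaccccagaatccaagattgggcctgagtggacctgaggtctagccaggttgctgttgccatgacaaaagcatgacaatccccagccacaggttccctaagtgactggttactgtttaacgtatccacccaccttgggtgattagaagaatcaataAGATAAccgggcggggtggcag
Hnf4a, downstream start: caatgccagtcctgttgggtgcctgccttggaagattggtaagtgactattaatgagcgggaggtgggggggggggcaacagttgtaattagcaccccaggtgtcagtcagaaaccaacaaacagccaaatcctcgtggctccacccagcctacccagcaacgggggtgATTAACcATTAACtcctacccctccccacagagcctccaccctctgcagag
Foxa2: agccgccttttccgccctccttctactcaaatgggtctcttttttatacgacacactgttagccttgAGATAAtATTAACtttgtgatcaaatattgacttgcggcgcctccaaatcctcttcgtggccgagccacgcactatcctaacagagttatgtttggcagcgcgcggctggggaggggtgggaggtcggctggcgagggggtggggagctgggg
Dab2: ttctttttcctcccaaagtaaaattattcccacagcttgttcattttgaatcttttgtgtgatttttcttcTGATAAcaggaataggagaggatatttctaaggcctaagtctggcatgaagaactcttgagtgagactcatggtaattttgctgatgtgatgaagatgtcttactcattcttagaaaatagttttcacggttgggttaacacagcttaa
Cubn: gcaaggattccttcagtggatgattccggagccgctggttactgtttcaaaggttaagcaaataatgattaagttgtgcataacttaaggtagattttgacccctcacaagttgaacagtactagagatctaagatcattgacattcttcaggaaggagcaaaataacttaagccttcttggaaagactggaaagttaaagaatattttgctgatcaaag
The GATA letters stood in 3 of the 9 windows, those of the upstream Hnf4a start, Foxa2 and Dab2, and in 24.5% of the 32851 windows of all genes. GTTAAT stood in 3 of the 9, those of the downstream Hnf4a start (2 copies, reading ATTAAC on this strand), Foxa2 and the downstream Dab2 start, and in 5.82% of all windows. In Foxa2 a GATA match and a GTTAAT match lay beside each other without overlap. The SOX letters ACAATG or ACAATA (15.9% of all windows) and the FOXA letters TGTTTAC or TATTTAC (5.16% of all windows) were in 0 of the 9. The Cubn window held none of these 4 sets of letters. A match or its absence describes the letters of these windows and nothing more.

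Pdgfra, the receptor for PDGF ligands and an early surface marker of the lineage, varied least over the libraries, with a coefficient of variation of 18.5%. P1 to P3 held 543, 420.2 and 434 normalised reads and N1 to N3 held 359, 593 and 529, so the positive side lay within the range of the negative side. By the authors' deposited table it had a log2 fold change of -0.08 (95% interval -0.75 to 0.59) with an adjusted p of 0.997. In reads the log2 ratio was 0.07 without N2 and -0.35 against N2 alone. The Pearson correlation of Pdgfra with Gata4 over the 6 columns was 0.93, with the same library lowest and the same library highest for both.

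Dab2, the clathrin adaptor that binds receptors of the LDL receptor family and cubilin's complex, was the most abundant of the 9. P1 to P3 held 3913, 3713 and 3467 normalised reads and N1 to N3 held 2562, 4205 and 2578. The highest and both lowest libraries were on the negative side. Its log2 fold change in the authors' deposited table was 0.25 (95% interval -0.28 to 0.78) with an adjusted p of 0.871. In reads the log2 ratio was 0.52 without N2 and -0.19 against N2 alone.

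Cubn, the receptor that takes up vitamin B12 with intrinsic factor and many other ligands, had the widest range among the genes found in every library, 21.3-fold from the lowest to the highest. P1 to P3 held 1487, 1031 and 370.2 normalised reads. N1 to N3 held 162, 2700.2 and 127, so that the lowest and the highest libraries shared a side. Its log2 fold change in the authors' deposited table was -0.05 (95% interval -2.68 to 2.58) with an adjusted p of 0.998. This value near 0 stood between a log2 ratio of the reads of 2.73 without N2 and -1.49 against N2 alone. Amn, the gene of amnionless, which anchors cubilin in the membrane, had 300, 174 and 10 reads in P1 to P3 and 0, 406 and 2 in N1 to N3. The order of the libraries was nearly that of Cubn, with the same 3 highest and the same 3 lowest. Dab2 and Cubn had a Pearson correlation of 0.96 over the 6 columns, the highest of the 36 pairs of the 9 genes.

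**Figure D2:**
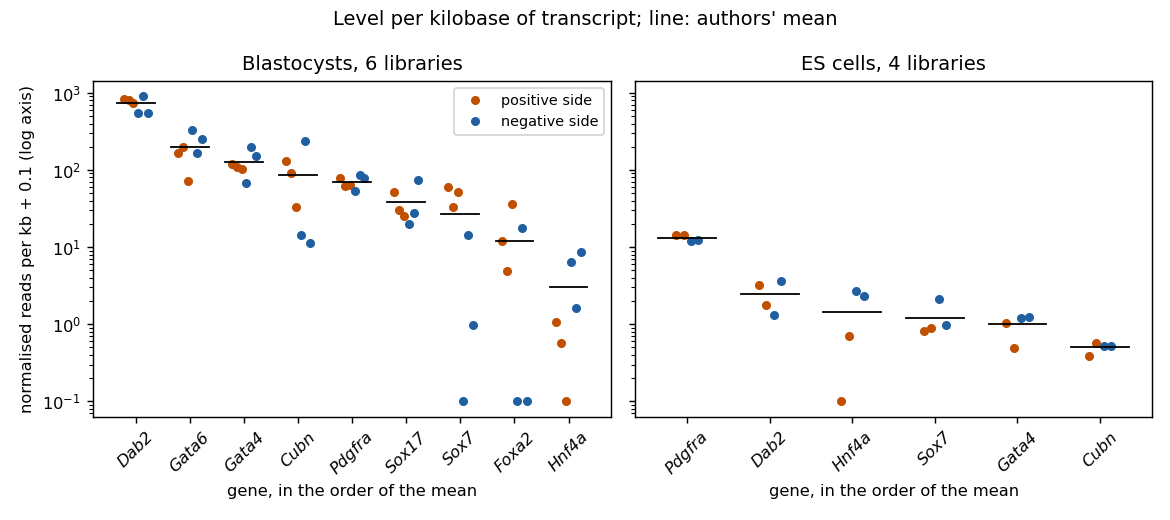
Normalised reads per kilobase of the longest annotated transcript, plus 0.1, on a log axis, in each count column (points) with the authors' mean (line), for blastocysts on the left and ES cells on the right; genes are in the order of the mean. Dab2 stands above the others in blastocysts and Pdgfra in ES cells, and points at 0.1 are libraries with 0 reads.

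Between genes, levels were compared per kilobase of the longest annotated transcript. In blastocysts the mean normalised reads per kilobase were 730.5 for Dab2, 197 for Gata6, 125 for Gata4, 87.0 for Cubn, 70.2 for Pdgfra, 38.1 for Sox17, 26.6 for Sox7, 11.9 for Foxa2 and 2.97 for Hnf4a. Only Dab2 lay apart from its neighbour, with every library (549 to 902) above every library of Gata6 (71.3 to 327). All other neighbours in this order overlapped in range, although Pdgfra was above Sox17 in 6 of 6 libraries. Cubn (11.2 to 239.8) and Sox7 (0 to 60.2) covered the places of several other genes, so their positions in the order depended on the library. Dab2 ranked higher than 99.0% of the genes with a mean above 0, and Hnf4a higher than 27.7%.

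**Figure D3:**
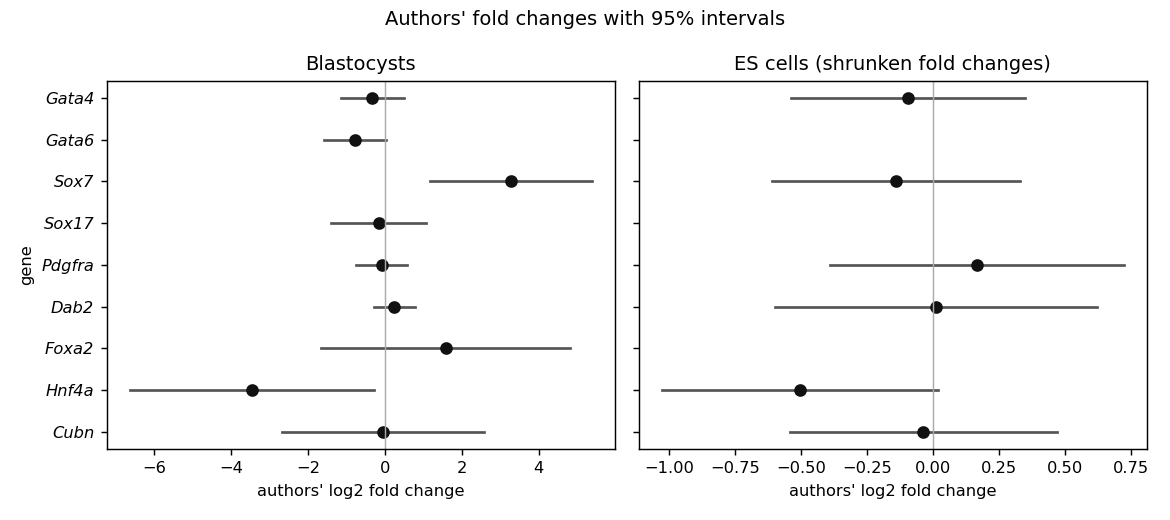
The authors' log2 fold change (point) and its 95% interval (line) for each gene in blastocysts (left) and ES cells (right, on a narrower axis, shrunken towards 0); 3 genes have no value in ES cells. In blastocysts the intervals of Sox7 (1.17 to 5.37) and Hnf4a (-6.62 to -0.28) lie on 1 side of 0, and neither passed the adjusted threshold.

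In ES cells 5 of the 6 listed genes had 18 reads or fewer in every library, and Pdgfra was the exception. Of the 6 listed genes, 0 passed an adjusted p of 0.05 in the authors' deposited table, where 0.261% of 10739 tested genes did. Of the 6 genes, 2 had an adjusted p, Pdgfra and Dab2, and the lowest mean with an adjusted p in this table was 9.18. At an unadjusted p under 0.05 there were also 0 of the 6, against 4.83% of all genes with a p-value. The columns of the sides lay apart for 4 of the 6 (Pdgfra, Gata4, Sox7 and Hnf4a), against 40.1% of all genes with recovered reads. Fold changes in this table are shrunken towards 0, and they are not compared in size with those of the blastocysts.

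In ES cells Pdgfra had 121 and 73 reads in P1 and P2 and 85 and 88 in N1 and N2, or 96.6, 96.1, 80.8 and 85.0 normalised reads. Both positive-side libraries were above both negative-side libraries by a small margin. The authors' deposited table gave a log2 fold change of 0.16 (95% interval -0.39 to 0.72) with an adjusted p of 0.9996. Fibroblasts also express Pdgfra, and the cells were grown on fibroblast feeders. Of the 14 fibroblast genes, all 14 had a mean above 0, and the summed level of the 13 with recovered reads was 763 and 664 normalised reads in P1 and P2 and 783 and 2372 in N1 and N2. That sum was highest in N2, where Col3a1 alone held 865 normalised reads. Thy1, Twist1 and Acta2 of the same list were not highest in N2. The part of feeder cells in the Pdgfra level was not tested.

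In ES cells Hnf4a had 0 and 2 reads in P1 and P2 and 12 and 10 in N1 and N2. The authors' deposited table gave a log2 fold change of -0.51 (95% interval -1.03 to 0.02) with an unadjusted p of 0.0582 and no adjusted p. The log2 ratio of the reads was -2.60. Hnf4a was thus higher in every negative-side library than in every positive-side library in both materials. The tables do not state whether their negative sides are the same genotype. The depth was low, with 0 to 12 reads of Hnf4a per library in ES cells and 0 to 44 in blastocysts.

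The other 4 genes had between 1 and 18 reads in every ES cell library. Dab2 had 18 and 6 reads in P1 and P2 and 6 and 17 in N1 and N2, and the authors' deposited table gave a log2 fold change of 0.01 (95% interval -0.60 to 0.62). Cubn held 4 and 4 against 5 and 5 reads, with a log2 fold change of -0.04 (95% interval -0.54 to 0.47) in the authors' deposited table. Gata4 held 4 and 1 against 4 and 4 reads, with -0.10 (95% interval -0.54 to 0.35) in the authors' deposited table. Sox7 held 3 and 2 against 7 and 3 reads, with -0.14 (95% interval -0.61 to 0.33) in the authors' deposited table. At this depth no difference was detectable for these 4. Per kilobase the order was Pdgfra (13.1 normalised reads), Dab2 (2.38), Hnf4a (1.36), Sox7 (1.11), Gata4 (0.895) and Cubn (0.401), and only Pdgfra lay apart from its neighbour.

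The genes that act with these 9 were taken as 5 lists. In blastocysts no gene of the 5 lists passed an adjusted p of 0.05 in the authors' deposited table. The 9 genes themselves had a median log2 fold change of -0.08, with 3 positive, beside a median of -0.04 over all tested genes, of which 48.3% were positive. Among 11 other endoderm transcription factors, 8 had a mean above 0, the median was 0.37, and 1 had an unadjusted p under 0.05. That was Foxa3, a forkhead factor, with 0, 2 and 30 reads in P1 to P3 and 0, 0 and 0 in N1 to N3, so a single library held nearly all its reads. Gata5, Sox18 and Lhx1 were listed at 0.

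Signalling genes upstream of the lineage showed no gene under an unadjusted p of 0.05 among 13, and their median log2 fold change was 0.06. Fgfr2, a receptor for FGF4, had the highest mean and stood at 1712, 1981 and 2457 normalised reads in P1 to P3 and 1305, 2201 and 1206 in N1 to N3. Its lowest 2 libraries were N1 and N3, as for 3 of the 13 genes of this list, against 9.88% of the tested genes with recovered reads. For 1 of the 13 these were the highest 2, against 11.8%. Among the 8 endocytic partners of cubilin and Dab2, 7 were tested, with 0 under an unadjusted p of 0.05 and a median of -0.18. Lrp2, the gene of megalin, which works with cubilin, had a log2 fold change of -1.11 ± 1.20 (SE) in the authors' deposited table with an adjusted p of 0.868, and its reads were not recovered.

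Of 14 visceral endoderm products, 7 had a mean above 0 and 4 were tested, with 0 under an unadjusted p of 0.05 and a median of -1.92, which lies between Apoa1 (-3.55) and Apoe (-0.30) in the authors' deposited table. Apoe, an apolipoprotein, was the most abundant of them, with 1269, 826 and 514 normalised reads in P1 to P3 and 779, 1625 and 809 in N1 to N3. Apoa1, another apolipoprotein, had 0, 14 and 0 reads in P1 to P3 and 240, 0 and 12 in N1 to N3. Ttr, a carrier of thyroid hormone, had 0 reads in P1 to P3 and 16, 0 and 14 in N1 to N3. Both high values fell in N1 and N3 for 2 of the 7 genes with a mean above 0, Ttr and Apoa1, and not for the others. The share was 11.8% over the tested genes with recovered reads. For Apoa1 this held in normalised reads only, since N3 had 12 reads and P2 had 14. Afp, Apob and Trf were listed at 0. Of 14 parietal endoderm products, genes of the basement membrane for the most part, 13 were tested and 12 had a positive fold change, with 0 under an unadjusted p of 0.05 and a median of 0.60. The sum of the 11 with recovered reads was 9911, 8958 and 7256 normalised reads in P1 to P3 and 3072, 12708 and 4123 in N1 to N3. Both low values fell in N1 and N3 for 8 of these 11 genes, against 9.88% of the tested genes with recovered reads. Both high values fell there for 1 of the 11, against 11.8%. Lama1, a laminin chain, had the highest mean of that list, 3760, with no p-value in the authors' deposited table.

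**Figure D4:**
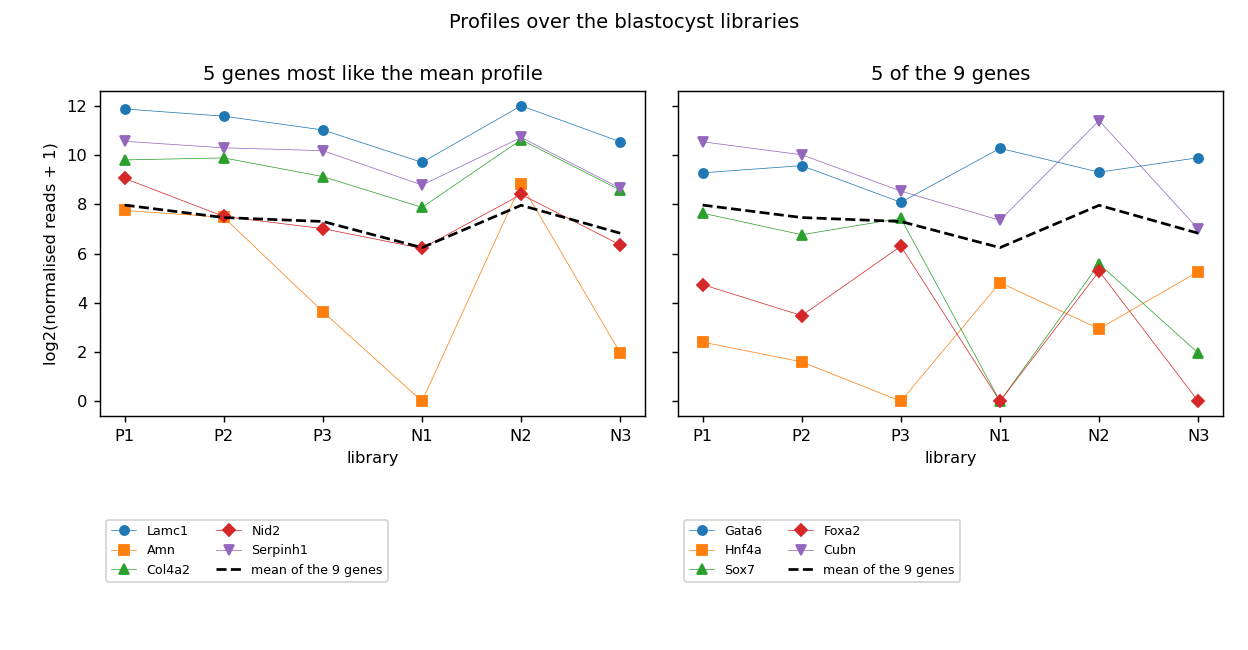
log2(normalised reads + 1) in the 6 blastocyst count columns for the 5 genes most like the mean of the 9 genes (left) and for 5 of the 9 (right), with that mean as a dashed line; lines only join the points of a gene, since libraries have no order. Gata6 and Hnf4a are high where Sox7, Foxa2 and Cubn are low, in N1 and N3.

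Among the listed genes, those whose order over the 6 blastocyst columns was most like the mean of the 9 genes were Lamc1 (Pearson r 0.99), Amn (0.95), Col4a2 (0.95), Nid2 (0.93) and Serpinh1 (0.92), over 6 columns on log2(normalised reads + 1). Of these 5, 4 are on the parietal endoderm list: a laminin chain, a collagen IV chain, nidogen 2 and a collagen chaperone. The columns share their library preparation. A mean over 9 genes is moved most by those with the widest range, which here included Sox7, Foxa2, Hnf4a and Cubn. Within the 9 genes, Gata6 and Hnf4a had a correlation of 0.88 with each other. With Foxa2 the correlation was -0.87 for Gata6 and -0.88 for Hnf4a, and Sox7 and Foxa2 had 0.91.

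Markers of the other cell types in a blastocyst, epiblast and trophectoderm, also differed between these libraries. Their part in the results above was not tested. Fibroblast and endothelial genes, of cell types not among those named for a blastocyst, are given beside them. Of 11 epiblast genes, 3 had an unadjusted p under 0.05, all negative, against 6.21% of the tested genes, and the median was -0.53. Tdgf1, an epiblast co-receptor of Nodal, stood at 179.9, 146 and 61.7 normalised reads in P1 to P3 and 455, 241 and 610.0 in N1 to N3, which did not overlap, with an adjusted p of 0.205 in the authors' deposited table. Nanog, the pluripotency factor that opposes Gata6, stood at 197, 65.0 and 9.14 in P1 to P3 and 518, 185 and 331 in N1 to N3, with an adjusted p of 0.546 in the authors' deposited table. Both high values fell in N1 and N3 for 3 of the 11 epiblast genes (Tdgf1, Nanog and Pou5f1), against 11.8% of the tested genes with recovered reads, and not for the other 8.

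Of 11 trophectoderm genes, 4 had an unadjusted p under 0.05, against 6.21% of the tested genes, and the median was -0.03. In the authors' deposited table Krt7 (log2 fold change 1.33) and Gata3 (0.52) were positive and Krt8 (-0.87) and Krt18 (-0.64) negative, with adjusted p from 0.641 to 0.769. The sum of the 9 with recovered reads was 7575, 8085 and 9605 normalised reads in P1 to P3 and 7133, 7198 and 7075 in N1 to N3. This sum leaves out Krt8 and Krt18, the most abundant genes of the list, with means of 5505 and 7678 in the authors' deposited table, because their reads were not recovered. Of 14 fibroblast genes, 8 were listed at 0 in blastocysts, including Col1a1, Col1a2, Col3a1, Dcn and Postn, and the rest had a median of -0.39. Fn1, which other cells also express, made up most of the list's sum of 363 to 1361 normalised reads on the positive and 784 to 1433 on the negative side. Of 6 endothelial genes, Pecam1 had an unadjusted p under 0.05, with 38.5, 99.5 and 13.7 normalised reads in P1 to P3 and 173, 136 and 262 in N1 to N3. Pecam1 also had a mean of 170 in ES cells in the authors' deposited table, so its values are not read as endothelial. The endothelial list had a median of -1.18, and its sum was 50.3 to 369 on the positive and 232 to 662 on the negative side. Tie1, an endothelial receptor, is the gene at that median (standard error 3.26 in the authors' deposited table), and it made up 306 of the 369 in P1 and 489 of the 662 in N1.

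In ES cells 0 genes of these lists passed an adjusted p of 0.05 in the authors' deposited table. Medians of the tested genes are given with the number tested in brackets. They were 0.09 (2) for the 9 regulators, -0.46 (2) for the other endoderm factors and -0.11 (12) for upstream signalling. Endocytic partners had 0.18 (7), visceral endoderm products -0.17 (3) and parietal endoderm products -0.41 (12). Epiblast genes had -0.34 (11), trophectoderm -0.37 (5), fibroblast -0.21 (13) and endothelial genes 0.36 (2). The median over all tested genes was -0.00011. Under an unadjusted p of 0.05, Otx2 (-0.75), a factor of the visceral endoderm and the early epiblast, was the 1 endoderm factor. For the parietal products Col4a1 (-0.77) and Col4a2 (-0.72), collagen IV chains, had the smallest p of 3 such genes, all negative. These 3 were among 13 with a p-value. The fibroblast list had 3 of 14, also all negative, and 4.83% of all genes with a p-value were under 0.05. Col4a1 stood at 87.8 and 105 normalised reads in P1 and P2 and 133 and 256 in N1 and N2. The summed level of the fibroblast list was also highest in N2, and the part of feeder cells in Col4a1 was not tested. The authors' deposited table also gave Tbx3 (-0.69) among epiblast genes, Tfap2c (0.91) among trophectoderm genes, Col1a1 (-0.92) and Col5a1 (-0.72) among fibroblast genes and Tek (0.78) among endothelial genes. Fgfr2, Ap2b1 and Apoe had the highest means of the lists without such a gene, with log2 fold changes of 0.03, 0.19 and -0.17 in the authors' deposited table.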

How the data were processed

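RNA sequencing of mouse blastocysts and ES cells was deposited as 1 table of comparison results per material, and the 9 genes and the lists were chosen with earlier results of these data known. Per the submitters' processing notes, STAR 2.4.0b, featureCounts, Subread 2.0.1 and DESeq2 1.34.0 were used on GRCm38, with no roles given. Per the file headers, the signal column is the authors' mean of normalised read counts, the log2 columns are the authors' fold change and its standard error, the score column is a Wald statistic by the authors, and the p-value columns are the authors' p and Benjamini-Hochberg adjusted p. Columns of per-sample values numbered 0. The fixed design foresaw a count model for tables of counts, so the authors' test was used. A 95% interval is the fold change ± 1.96 standard errors, and in ES cells it is built on the shrunken value.

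Each mean is a sum of whole reads times a fixed step per library. The steps were found from low means, and each mean, printed to 15 digits, was solved for whole reads. In blastocysts a single solution for a mean up to 12 was taken without a further check. Any other solution also had to give back the authors' fold change in a negative binomial fit within 1e-11 (Amn within 1e-04). This resolved 6779 of 6779 blastocyst genes with a mean up to 12, 6462 of 6464 up to 150, 3707 of 3708 up to 1000 and 183 of 188 up to 1500, and 12137 of 12137 ES cell genes up to 350. Above 1500 and up to 4000, where Dab2 and Fgfr2 lie, the blastocyst genes of the lists were tried, and 8 of 12 were resolved. Columns were placed on a side by the sign of the authors' fold changes, never assigned to a sample, and no p was computed over them. Reads cover counting precision only. Ratios of reads used a pseudocount of 0.5. The recovery was tested on simulated data, for blastocysts with even reads drawn from means under 1000 and fold changes made by the same fit. That test therefore did not cover odd reads or the search above 1500. It could not show whether the authors' own fit was matched.

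Transcript lengths came from GENCODE M21. Named genes were the 9, every list gene with an adjusted p under 0.05, up to 2 per direction, list and material with the smallest unadjusted p under 0.05, or else the list's most abundant gene. Other list genes named (Amn, Afp, Apob, Trf, Gata5, Sox18, Lhx1, Col1a2, Col3a1, Dcn, Postn, Pou5f1, Apoa1, Ttr, Tie1) were chosen after their values were seen, or by likeness to the mean of the 9 on log2(normalised reads + 1) at a mean of at least 10. Alternatives were other adjustments and thresholds, other pseudocounts and leaving out each library. Calculations used Python with numpy, pandas, scipy and numba.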

Additional observations from a re-analysis of the deposited data

Results flagged for a closer look

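Sox7 had a log2 fold change of 3.27 in the authors' deposited blastocyst table with every positive-side library above every negative-side library, while in ES cells both positive-side libraries (3 and 2 reads) lay below or level in reads with the negative-side libraries (7 and 3 reads) and below them after normalisation. The difference between the materials was not tested, the direction of neither comparison is stated, and the ES cell values rest on 2 to 7 reads per library.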

How the results depend on the processing

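The count of 0 genes past the threshold held in both materials under 3 other choices (every gene with a p-value, a mean of at least 50, autosomes only), with a smallest adjusted p between 0.360 and 0.400 in blastocysts. The 2 stricter thresholds tried could only return 0. No paired analysis was possible because the recovered count columns carry no replicate numbers. With all libraries the sides lay apart for 2 of the 9 genes in blastocysts, against 10.0% of the tested genes with recovered reads. In ES cells they lay apart for 4 of the 6, against 40.1% of all genes with recovered reads. When each library was left out in turn, the count ranged from 2 to 6 in blastocysts and was 5 each time in ES cells. The 6 came without N2, where the share over the tested genes was 26.9%. With fewer columns any gene lies apart more easily, and the share was not computed for the other libraries left out. Ratios of the recovered reads (other pseudocounts, each library left out and, chosen after the values were seen, N2 alone) stayed within 1 standard error of the authors' fold change in 70 of 81 blastocyst values and 16 of 36 ES cell values. In ES cells the authors' values are shrunken. The sign was the same throughout for 3 of the 9 genes in blastocysts (Gata6, Sox7, Hnf4a) and for 4 of the 6 in ES cells (Gata4, Sox7, Pdgfra, Hnf4a). With 3 single embryos per side, and few reads for Hnf4a and Foxa2, the intervals of Sox7, Foxa2, Hnf4a and Cubn each span over 4 log2 units.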
